A study of Mus musculus with 12 samples.

Results

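Osteoclasts and multinucleated giant cells both arise when cells of the monocyte and macrophage lineage fuse, and 10 genes of that programme were followed here by messenger RNA level: *Tnfrsf11a*, *Nfatc1*, *Oscar*, *Calcr*, *Dcstamp*, *Ocstamp*, *Acp5*, *Ctsk*, *Itgb3* and *Atp6v0d2*. They were chosen by name, with earlier results of these data known, and found through their Ensembl identifiers. All 10 were present among the 56941 genes of the deposited count tables. The material was bulk RNA sequencing of 12 libraries of mouse bone marrow-derived macrophages, 3 in each of 4 groups. Wild-type (WT) and miR-210 knockout (KO) mice were C57BL/6J offspring of heterozygous matings, and the deleted allele came from a cross of floxed miR-210 mice with Gata-1 Cre mice, so the deletion was inherited and not limited to macrophages. The ages of the mice were not given in the sources used here.

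In all 4 groups, monocytes were taken from marrow by magnetic negative selection and grown for 7 days in medium with L929-conditioned medium as the source of M-CSF, the growth factor that macrophages and osteoclast precursors share. The groups WT M0 and miR-210 KO M0 received no IL-4. The groups WT M2 and miR-210 KO M2 received IL-4 at 20 ng/mL for 72 hours. By the methods, control wells were otherwise kept under the same conditions, without IL-4. The methods name no RANK ligand, the cytokine that drives osteoclast formation, in any medium, and no library is labelled as osteoclasts. The labels and methods do not tie a library to a mouse, so each test below measures the spread between these libraries, which may be technical.

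RANK, encoded by *Tnfrsf11a*, receives RANK ligand on the precursor and signals to the transcription factor NFATc1, with costimulation from immunoglobulin-like receptors such as OSCAR. NFATc1 then turns on genes for cell fusion (DC-STAMP and OC-STAMP), bone resorption (tartrate-resistant acid phosphatase and cathepsin K), attachment (integrin β3), acid secretion (the d2 subunit of the vacuolar proton pump) and response to calcitonin (the calcitonin receptor). IL-4 has a different place in this biology: it is known to oppose RANK ligand-driven osteoclast formation, and it is also known to make macrophages fuse into giant cells, a process that needs DC-STAMP. The study asked how loss of miR-210 affects polarization toward M2, and here the question is put to this gene set.

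The deleted microRNA is shown because its seed sets which transcripts it can pair with. The mature strand miR-210-3p, from RefSeq (GRCm38.p6, chr7:141221407-141221428, minus strand), is written 5′ to 3′ with its seed, bases 2 to 8, in capitals.

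mmu-miR-210-3p: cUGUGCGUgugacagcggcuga

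The complement of that seed was looked for in the annotated 3′ untranslated regions of the members (GENCODE, GRCm39). It occurred in 3 of the 10 members, *Ctsk*, *Nfatc1* and *Atp6v0d2*, with 1 match each. The share was 5.22% over 20912 protein-coding genes, with no allowance for the length of the region, and 7 of 109 other osteoclast and fusion genes held a match. Those found in *Ctsk* (plus strand, chr3:95416021-95416027) and *Atp6v0d2* (minus strand, chr4:19877690-19877696) are shown with their flanks, the complement of the seed in capitals. The match in *Nfatc1* is not shown.

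Ctsk: tgcattcgtgcACGCACAcacatacacac

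Atp6v0d2: ttagattatcaACGCACAcatagagacag

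A match is a description of letters and not a shown target. *Dcstamp* and *Ocstamp*, whose levels differed between the genotypes in M2, held no match in their longest annotated regions of 652 and 2208 bases.

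The libraries held 7930525 to 10167695 counts. The precursor *Mir210* was counted 1, 3 and 5 times in the WT M0 libraries and 1, 2 and 1 times in the WT M2 libraries, and 0 times in all 6 KO libraries, a level too low for a test. The macrophage genes *Adgre1*, *Cd68*, *Csf1r*, *Itgam*, *Mertk* and *Fcgr1* were detected in every group, at a sum of 26556 to 39161 counts per library, and the IL-4 response genes *Arg1*, *Retnla*, *Chil3* and *Mrc1* summed to 12331 to 20218 counts in the M0 libraries against 52013 to 64575 in the M2 libraries. Neutrophil genes summed to at most 54 counts, erythroid genes to at most 42, and lymphocyte genes to at most 4. In miR-210 KO M0 library 3 the early response gene *Fos* had 9141 counts, against 738 to 1595 in the other M0 libraries.

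Levels below are read counts normalised by the trimmed mean of M values (TMM) and scaled to a library of average size, with a standard deviation (SD) over 3 libraries. Comparison between genes uses RPKM, the same level divided by exonic length, which is the union of all annotated exons of a gene. That union can be longer than the transcripts present, which lowers the RPKM of some genes more than of others. A gene is called changed when edgeR's quasi-likelihood test gave an adjusted p under 0.05, with Benjamini-Hochberg adjustment over all genes tested, and a change of more than 1.2-fold in either direction. Calls for the change from M0 to M2 were further limited to protein-coding genes whose average normalised count in the pair exceeded 10.

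**Figure D1:**
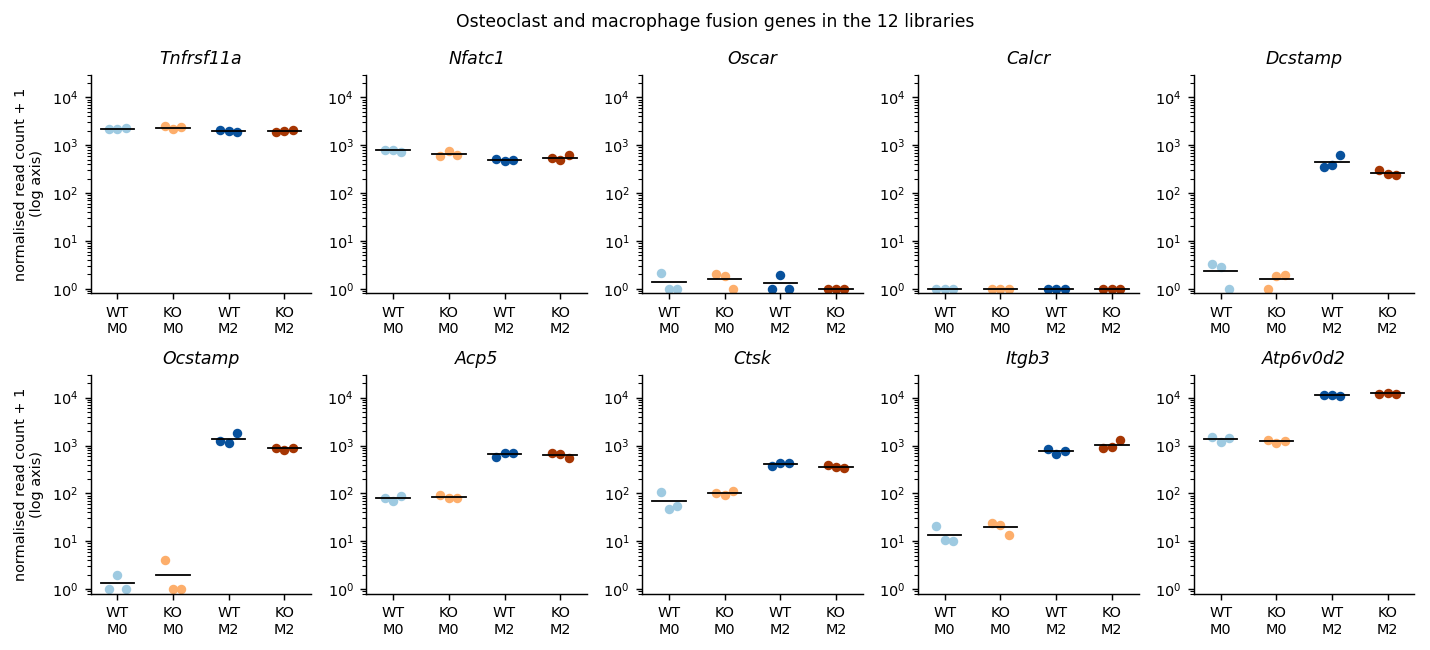
Normalised read count plus 1 on a log axis for the 10 members, with 1 point per library, 3 libraries per group, and a bar at the group mean. *Dcstamp*, *Ocstamp*, *Acp5*, *Ctsk*, *Itgb3* and *Atp6v0d2* are higher in every M2 library than in every M0 library, *Tnfrsf11a* and *Nfatc1* are present in all groups, and *Oscar* and *Calcr* lie at or near 0.

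With IL-4, 6 of the 10 members rose in WT macrophages and the same 6 rose in KO macrophages: the 2 fusion genes, both resorption enzymes, integrin β3 and the proton pump subunit. The background for higher calls was 18.4% of 14266 genes tested in WT and 14.3% of 14331 in KO. The genes tested include noncoding and low-count genes that the further limits kept from being called, which lowers these shares. In WT, 1 member fell, *Nfatc1*, where 17% of genes tested were called lower. No member was called lower in KO by edgeR, where 14% of genes tested were called lower. *Tnfrsf11a* and *Nfatc1* were lower there and under 0.05 before adjustment, and both were short of the fold limit, and DESeq2 called neither. Of all 14331 genes tested in KO, 6235 were under 0.05 before adjustment in edgeR. *Calcr* and *Oscar* were too low to test. Over the 8 members tested the median log2 fold change was 3.06 in WT and 3.15 in KO, against 0.00 and -0.01 over all genes tested. Bulk libraries do not separate a change in RNA per cell from a change in the share of cells that carry it.

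*Tnfrsf11a* (chr1:105708358-105777170), the receptor for RANK ligand, was well expressed in every library. Its normalised count was 2191, 2157 and 2291 in WT M0 against 2080, 2027 and 1891 in WT M2. In KO it was 2477, 2195 and 2347 in M0 and 1892, 1948 and 2035 in M2. Every M2 library lay a little under every M0 library of its genotype. The log2 fold change was -0.14 (SE 0.06, adjusted p = 0.10) in WT and -0.24 (SE 0.08, adjusted p = 0.0310) in KO, where it passed the adjusted p but not the fold limit. It was called in KO without KO M0 library 2 (log2 fold change -0.30, adjusted p = 0.00697) or without KO M2 library 3 (-0.28, adjusted p = 0.0322).

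*Nfatc1* (chr18:80649266-80756295), the central transcription factor of osteoclast formation, moved opposite to the 6 members that rose. It stood at 787, 805 and 736 in WT M0 against 504, 466 and 492 in WT M2, groups well apart, with a 1.58-fold lower level in M2 (log2 fold change -0.66, SE 0.07, adjusted p = 4.13e-06). In KO it was 602, 766 and 617 in M0 and 537, 486 and 620 in M2, and the groups overlapped. The change in KO was -0.26 (SE 0.11, adjusted p = 0.102), and among the alternatives run it was called only without KO M2 library 3 (-0.37, adjusted p = 0.0341). The difference between the 2 changes was 0.41 (SE 0.14), and its adjusted p over all genes was 0.327.

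*Oscar* (chr7:3612812-3620861), the collagen receptor that costimulates NFATc1, and *Calcr* (chr6:3685680-3764714), the calcitonin receptor and a marker of mature osteoclasts, were not expressed at a level this depth can measure. *Oscar* had 1, 0 and 0 reads in WT M0, 1, 1 and 0 in KO M0, 0, 1 and 0 in WT M2 and 0 in all KO M2 libraries. *Calcr* had 0 reads in all 12 libraries, which allows up to 3 counts per library. No fold is given for either gene.

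*Dcstamp* (chr15:39609214-39624334) encodes a multi-pass membrane protein needed for fusion of osteoclasts and of giant cells, and it was nearly silent without IL-4. It had 2, 2 and 0 reads in WT M0 against 0, 1 and 1 in KO M0. In M2 its reads were 326, 407 and 564 in WT and 279, 271 and 209 in KO. The ratio of M2 to M0 was 340 in WT (95% exact interval 132 to 1249) and 430 in KO (119 to 3561), intervals that cover counting error only. Both changes were called (adjusted p = 3.84e-09 and 9.34e-10), and the fitted folds of genes this low in M0 depend on the prior count of the fit.

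*Ocstamp* (chr2:165235680-165242336), the related membrane protein with the same role in fusion, showed the same switch at a higher level. Its reads were 0, 1 and 0 in WT M0 against 3, 0 and 0 in KO M0. They were 1166, 1181 and 1641 in WT M2 and 819, 872 and 803 in KO M2. The ratio of M2 to M0 was 4179 in WT (95% exact interval 750 to 165097) and 943 in KO (322 to 4575), and since it rests on 1 and 3 reads in M0 the wide intervals overlap. Both changes were called (adjusted p = 8.34e-11 and 8.70e-11).

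*Acp5* (chr9:22038023-22049355), tartrate-resistant acid phosphatase and the classical histochemical marker of osteoclasts, had a clear level before IL-4. Its normalised count was 80.9, 67.4 and 85.6 in WT M0 against 91.1, 78.8 and 78.9 in KO M0. In M2 it was 571, 698 and 682 in WT and 697, 664 and 538 in KO. No M2 library came near any M0 library. The increase was 8.41-fold in WT (log2 fold change 3.07, SE 0.11, adjusted p = 1.72e-10) and 7.74-fold in KO (2.95, SE 0.13, adjusted p = 2.51e-09).

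*Ctsk* (chr3:95406178-95416732), the collagen-cleaving protease of osteoclasts, rose less. It was 104, 45.8 and 54.6 in WT M0 against 371, 425 and 435 in WT M2. In KO it was 101, 90.2 and 110 in M0 and 384, 357 and 335 in M2. The M2 libraries were above the M0 libraries in both genotypes, and WT M0 library 1 stood with the KO M0 libraries. The increase was 6.23-fold in WT (log2 fold change 2.64, SE 0.19, adjusted p = 8.55e-08) and 3.62-fold in KO (1.86, SE 0.11, adjusted p = 5.40e-08).

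*Acp5* and *Ctsk* rose together, and the RefSeq table held promoter windows of 300 bases around the annotated start for both, as well as for *Tnfrsf11a*, *Calcr* and *Oscar* (8 windows for 5 members). Entries were missing for *Dcstamp*, *Ocstamp*, *Itgb3*, *Atp6v0d2* and *Nfatc1*. Windows were searched on both strands for TTC and GAA with any 4 bases between (bound by STAT6, the transcription factor activated by IL-4). Also searched were TGANTCA (AP-1), TCANGTG (MITF and TFE factors) and GGAAA (the NFAT core). The letters TCANGTG allow any base at N and are looser than the site of MITF and TFE factors. The STAT6 letters were in 1 of the 8 windows and in 6.95% of the 32851 windows of the table. The AP-1 letters were in none of the 8 (7.81% of all windows), the MITF and TFE letters in 3 (14.3%), and the short NFAT core in 6 (61.3%). The window with the STAT6 letters belongs to *Acp5* and is shown as the only member window that held them. It is 1 of 3 *Acp5* windows (GRCm38.p6, minus strand, chr9:22130549-22130848) and is written 5′ to 3′, with the STAT6 letters and then the MITF and TFE letters, read on the other strand, in capitals.

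Acp5 promoter window: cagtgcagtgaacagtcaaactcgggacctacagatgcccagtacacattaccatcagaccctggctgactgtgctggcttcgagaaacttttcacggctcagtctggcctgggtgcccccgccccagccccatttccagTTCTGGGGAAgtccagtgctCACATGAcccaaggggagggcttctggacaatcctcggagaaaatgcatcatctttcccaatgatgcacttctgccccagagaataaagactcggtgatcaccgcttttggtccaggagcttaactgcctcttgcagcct

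*Ctsk*, which rose as well, had neither the STAT6 nor the AP-1 nor the MITF and TFE letters in its 1 window (chr3:95498960-95499259). No match says only that these letters are not in that window.

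*Itgb3* (chr11:104498826-104561302), the β3 chain that pairs with αv in the vitronectin receptor of the osteoclast sealing zone, went from traces to a solid level. Its normalised count was 19.6, 9.36 and 9.11 in WT M0 against 23.3, 21.0 and 12.7 in KO M0. In M2 it was 864, 670 and 760 in WT and 870, 946 and 1311 in KO. The gap between M0 and M2 was far wider than the spread within any group, at 62.3-fold in WT (log2 fold change 5.96, SE 0.19, adjusted p = 3.09e-11) and 55.5-fold in KO (5.79, SE 0.22, adjusted p = 8.38e-10). *Itgav*, which encodes the αv partner, fell by 0.29 on the log2 scale in WT (adjusted p = 0.00554) and by 0.37 in KO (adjusted p = 0.00622).

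*Atp6v0d2* (chr4:19876838-19922614), the d2 subunit of the membrane sector of the vacuolar proton pump, also known to be needed for osteoclast fusion, was the most abundant member in every group. It was 1538, 1156 and 1409 in WT M0 against 11523, 11535 and 10800 in WT M2. In KO it was 1290, 1136 and 1227 in M0 and 12119, 12756 and 11892 in M2. The increase was 8.33-fold in WT (log2 fold change 3.06, SE 0.10, adjusted p = 3.13e-11) and 10.2-fold in KO (3.35, SE 0.08, adjusted p = 2.96e-11). The ubiquitous d1 isoform, *Atp6v0d1*, was level across the groups, at 988 ± 73.3 (SD, n = 3) in WT M0 against 984 ± 8.62 in WT M2, with log2 fold changes of 0.01 (SE 0.07) in WT and 0.03 (SE 0.08) in KO. In RPKM, d2 exceeded d1 in every group, at 55.3 ± 7.86 against 23.9 ± 1.78 in WT M0 against 456 ± 17.0 against 23.9 ± 0.209 in WT M2.

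**Figure D2:**
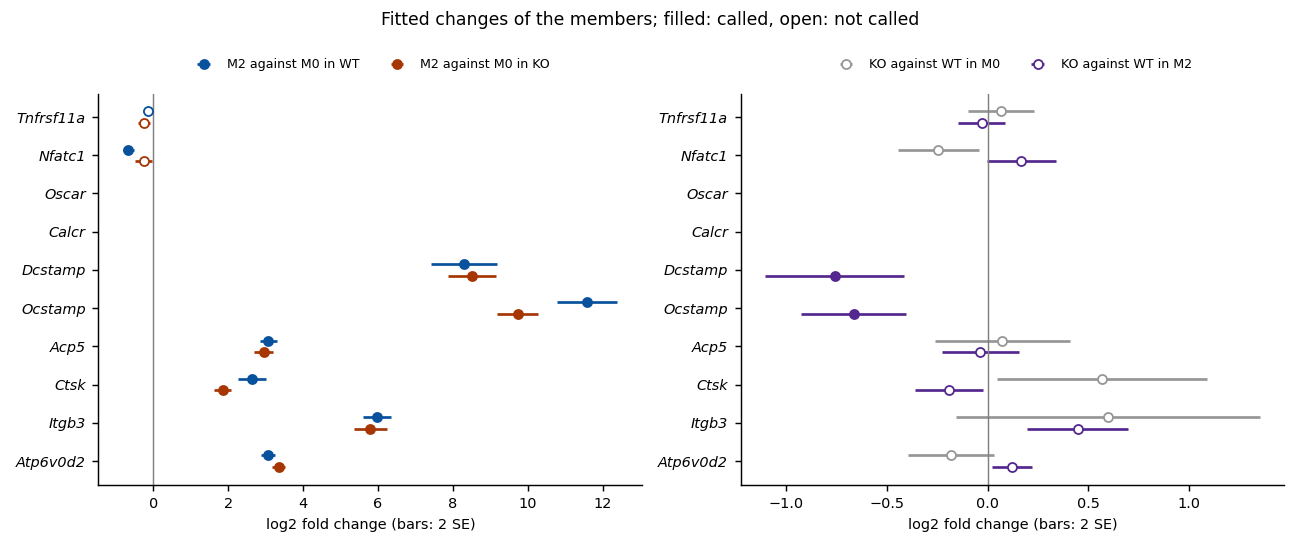
Fitted log2 fold changes of the members with bars of 2 standard errors, M2 against M0 on the left and KO against WT on the right, filled where called and open where not called. The M2 against M0 bars of *Dcstamp* and *Ocstamp* are narrower than their exact count intervals, and their M0 libraries hold few reads. On the left, 6 members are filled in both genotypes and rise with IL-4, and *Nfatc1* is filled in WT only and falls. Differences between genotypes are much smaller than those rises, and *Dcstamp* (-0.76) and *Ocstamp* (-0.66) in M2 were called.

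Per length, the order of the members changed with IL-4. Within a group, the order also depends on the exonic length used for each gene. In WT M0 it ran from *Atp6v0d2* (55.3 RPKM) through *Tnfrsf11a* (32.3 ± 1.01) and *Nfatc1* (11.2 ± 0.521) to *Ctsk* (2.55 ± 1.17) and *Acp5* (1.96 ± 0.238), and the last 2 did not differ beyond their spread. *Itgb3* stood at 0.212 and the remaining 4 were at or near 0. The first 6 places were the same in KO M0, where *Ctsk* (3.76 ± 0.367) lay above *Acp5* (2.08 ± 0.177). In WT M2, *Ocstamp* was second at 42.0 ± 11.4, and *Tnfrsf11a* followed at 29.2 ± 1.42. *Dcstamp* (16.9 ± 5.70), *Acp5* (16.3 ± 1.75), *Ctsk* (15.4 ± 1.28) and *Itgb3* (12.8 ± 1.62) were neighbours whose spreads overlapped, and *Nfatc1* was lower at 7.04 ± 0.280. In KO M2, *Tnfrsf11a* (28.6 ± 1.06) and *Ocstamp* (26.4 ± 1.49) lay side by side, *Itgb3* (17.4 ± 3.94), *Acp5* (15.9 ± 2.11) and *Ctsk* (13.4 ± 0.913) overlapped in turn, and *Dcstamp* was at 9.94 ± 1.41, above *Nfatc1* at 7.91 ± 0.979.

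Between genotypes without IL-4, edgeR called no member. All 6 members that could be tested fell short, against 0.22% of 14089 genes called higher in KO M0 and 0.241% called lower. DESeq2 called 0 members as well. In edgeR 1 member, *Nfatc1*, was under 0.05 before adjustment, as were 1410 of all 14089 genes tested. *Ctsk* was 1.48-fold higher in KO M0 on average (log2 fold change 0.57, SE 0.26, adjusted p = 0.500), with WT M0 library 1 inside the KO range. Without that library the difference was 0.98 (adjusted p = 0.162). *Itgb3* differed by 0.60 (SE 0.38, adjusted p = 0.664), *Nfatc1* by -0.24 (SE 0.10, adjusted p = 0.433) and *Atp6v0d2* by -0.18 (SE 0.11, adjusted p = 0.640). The differences of *Acp5* (0.07, SE 0.17) and *Tnfrsf11a* (0.07, SE 0.08) were smaller than their standard errors. The median over the 6 was 0.07, against 0.00 over all genes tested.

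In M2 the 2 fusion genes were lower in KO, and no other member was called. The background was 0.572% of 13980 genes called lower and 0.408% called higher. *Dcstamp* had a normalised count of 346, 386 and 629 in WT M2 and 309, 255 and 236 in KO M2. The groups did not overlap, the nearest libraries lay close, and WT M2 library 3 was well above the others. The difference was 1.69-fold (log2 fold change -0.76, SE 0.17, edgeR adjusted p = 0.0487), just inside the threshold. Without WT M2 library 3 it was -0.46 (adjusted p = 0.122), and the call was also lost without KO M2 library 1 (adjusted p = 0.0835), library 2 (0.280) or library 3 (0.0594). With DESeq2 the difference was -0.76 (adjusted p = 0.398), and no call was made.

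*Ocstamp* had a normalised count of 1237, 1121 and 1830 in WT M2 and 907, 821 and 907 in KO M2. Again every KO library was lower than every WT library, and again WT M2 library 3 was the highest. The difference was 1.58-fold (log2 fold change -0.66, SE 0.13, edgeR adjusted p = 0.0215). Without WT M2 library 3 it was -0.42 (adjusted p = 0.0197), and without KO M2 library 1 or 2 the adjusted p was 0.0835 and 0.203. With DESeq2 it was -0.67 (adjusted p = 0.196). Of the lists for other cells, those of dendritic cells and neutrophils were also lower in KO M2, without overlap of the groups. The osteoblast and stroma list overlapped, at 186 to 200 counts in WT M2 and 168 to 208 in KO M2. So did the lymphocyte list (0 to 2 and 1 to 2) and the erythroid list (0 to 42 and 0). The dendritic cell list summed to 119 to 156 counts in WT M2 and 89 to 114 in KO M2, and the neutrophil list, mostly *S100a8*, to 23 to 54 and 9 to 19, with *Flt3* and *Ly6g* at 0 in all 6 libraries. Their part in the difference of *Dcstamp*, *Ocstamp* and the partner genes given below was not tested.

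None of the other 6 members tested was called in M2 in the main edgeR fit or by DESeq2. *Itgb3*, *Atp6v0d2* and *Ctsk* were under 0.05 before adjustment in edgeR, as were 1498 of all 13980 genes tested. *Itgb3* was higher in every KO M2 library than in any WT M2 library, the nearest pair being 870 and 864, with a difference of 0.45 (SE 0.13, adjusted p = 0.123) that was not called. Without KO M2 library 3, the highest, it was 0.25 (adjusted p = 0.171). *Itgb3* was called in edgeR fits with no filter on low counts and with a block by column number. *Atp6v0d2* was 12256 ± 448 in KO M2 and 11286 ± 421 in WT M2 (log2 fold change 0.12, SE 0.05, adjusted p = 0.377). *Acp5* differed by -0.04 (SE 0.10), *Tnfrsf11a* by -0.03 (SE 0.06), *Ctsk* by -0.19 (SE 0.08, adjusted p = 0.425) and *Nfatc1* by 0.17 (SE 0.09, adjusted p = 0.523). For *Acp5*, 2 SE on either side of the difference spanned -0.23 to 0.15. Over the 8 members tested the median difference was -0.03, against 0.00 over all genes.

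Whether the change with IL-4 differed between genotypes was tested as an interaction over the 12 libraries. No gene was called by edgeR among 14825 tested (0%), and so no member. Before adjustment 1327 genes were under 0.05, among them *Ctsk*, *Nfatc1* and *Atp6v0d2*, and DESeq2 called 72 genes, of which 0 were members. For *Ctsk* the rise was smaller in KO by 0.78 on the log2 scale (SE 0.26, adjusted p = 0.324). Without WT M0 library 1 that difference was -1.18 (adjusted p = 0.0297), and with no filter on low counts -0.79 (adjusted p = 0.00403), both past the threshold. For *Dcstamp* the difference between the changes was 0.21 (SE 1.09) and for *Ocstamp* -1.87 (SE 1.99), imprecise because the M0 levels rest on few reads. The M2 call for these 2 genes is therefore a difference in M2 level, and a difference in the response itself was not detectable at this depth.

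A further 109 genes of 9 lists, from RANK signalling to cell fusion, place the members among their partners. These lists, like the members, were chosen with earlier results of these data known. In WT, 49 rose and 19 fell of 102 tested (48% and 18.6%, against 18.4% and 17% over all genes tested), with a median of 0.26. In KO, 39 rose and 20 fell of 101 tested (38.6% and 19.8%, against 14.3% and 14%), with a median of 0.15. The share that fell in WT was near that over all genes, and the same shares over all genes are the background for each list below. *Car2*, *Src* and *Cdh1* were the partner genes with a log2 fold change over 4. The medians are the same with *Car2* and *Cdh1* set at the lower bounds given below, since both stay above them.

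**Figure D3:**
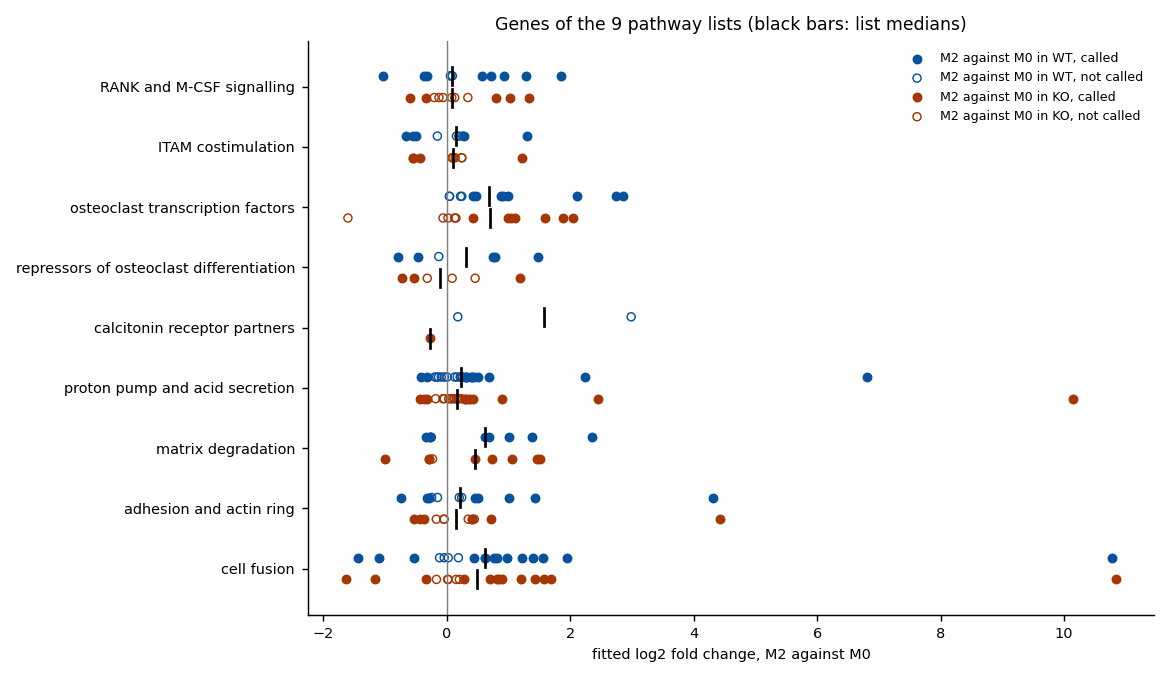
Fitted log2 fold changes, M2 against M0, of the genes in 9 lists of osteoclast and fusion biology, 1 point per gene, WT in blue and KO in orange, filled where called, with black bars at list medians. Medians stay near 0 to 1, apart from the calcitonin receptor partners with at most 2 genes tested, and *Cdh1*, *Car2* and *Src* stand far to the right in both genotypes. The far right positions of *Cdh1* and *Car2* depend on the prior count, since their M0 libraries hold few or no reads.

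RANK ligand itself, *Tnfsf11*, had a single read in the 12 libraries, and its decoy receptor *Tnfrsf11b* had 3. Of the 11 genes of RANK and M-CSF signalling that could be tested, 5 rose and 3 fell in WT and 3 rose and 2 fell in KO. *Csf1*, the gene for M-CSF, rose by 1.84 (SE 0.24, adjusted p = 3.04e-05) in WT and 1.03 (SE 0.22, adjusted p = 0.00257) in KO. *Rel* rose by 1.28 and 1.33 and *Nfkb1* by 0.93 and 0.80, both subunits of NF-κB. *Map3k14*, the kinase of the alternative NF-κB pathway, fell by 1.03 and 0.60. Among 9 genes of ITAM costimulation, the arm that OSCAR would feed, the adaptor *Blnk* rose by 1.30 in WT and 1.22 in KO, and *Plcg2*, *Fcer1g* and *Lcp2* fell in both genotypes, by 0.65, 0.54 and 0.50 in WT. *Fcer1g* encodes the signalling chain that pairs with OSCAR.

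Among the transcription factors that act beside NFATc1, 12 could be tested, of which 8 rose in WT and 7 in KO, where 18.4% and 14.3% of all genes tested were called higher. The others, *Fos*, *Tfe3*, *Spi1* and *Esrra* among them, were not called. *Myc* rose by 2.85 in WT and 1.88 in KO, *Fosl2* by 2.74 and 2.05, and *Ppargc1b*, a coactivator of mitochondrial genes in osteoclasts, by 2.11 and 1.59. KO M0 library 3, high for *Fos*, was also the highest M0 library for *Fosl2*, with 1804 counts against 501 to 874 in the others, and with each library left out in turn and under the other settings the KO value lay between 1.82 and 2.65. Among 6 repressors of osteoclast formation, not all of which are reported here, *Irf8* fell by 0.78 in WT and 0.72 in KO. *Rbpj* fell by 0.46 and 0.53. *Nr4a1* (1.48) and *Id2* (0.75) were called higher in WT and not in KO, where M0 library 3 had 425 and 3142 reads of them, and neither had an interaction called in the edgeR fit. Without that library both were called higher in KO. *Id2* was also called in KO with no filter, in the fit of all 12 libraries and with the replicate block. The WT call of *Nr4a1* was lost in the fit of all 12 libraries, and its interaction was called with no filter.

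The machinery that makes and delivers acid was raised at a few points. Of 23 genes, 10 rose and 2 fell in WT, and 8 rose and 3 fell in KO. *Car2*, carbonic anhydrase II, the enzyme that supplies protons to the osteoclast pump, had 4, 2 and 1 reads in WT M0 against 205, 253 and 321 in WT M2, and 0 in all KO M0 libraries against 140, 144 and 110 in KO M2. In KO it was at least 49.5-fold higher in M2, taking 3 counts per library as the floor. *Atp6v0a1*, a pump a subunit, rose by 2.24 in WT (adjusted p = 2.94e-10) and 2.45 in KO (adjusted p = 7.65e-09), and the osteoclast isoform *Tcirg1* by 0.51 and 0.38. *Clcn7*, the chloride exchanger of the resorption membrane, fell by 0.41 and 0.37.

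Among 9 genes of matrix degradation, 5 rose and 3 fell in each genotype. *Mmp9*, the gelatinase of osteoclasts and macrophages, rose by 2.35 in WT and 1.52 in KO. *Ctsl* rose by 1.37 and 1.47 and *Cst3*, a cathepsin inhibitor, by 1.00 and 1.05. *Ctsb* fell by 0.34 and 0.28. *Mmp14*, a membrane collagenase, fell by 1.00 in KO, and in WT its change of -0.25 (adjusted p = 0.0727) was not called. The difference between the 2 changes had an edgeR adjusted p of 0.0951, and it was called with DESeq2, with no filter, and without WT M0 library 2 or KO M0 library 2.

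In the 12 genes of adhesion and actin ring formation, *Src*, the kinase osteoclasts need for a ruffled border, stood apart. It had 22, 24 and 31 reads in WT M0 against 441, 539 and 471 in WT M2, and 23, 15 and 19 in KO M0 against 389, 387 and 297 in KO M2. The log2 fold change was 4.31 (SE 0.12, adjusted p = 1.06e-11) in WT and 4.42 (SE 0.18, adjusted p = 1.94e-09) in KO. *Tln1*, talin, rose by 1.01 and 0.72, and *Ptk2b*, a kinase of podosomes, fell by 0.74 and 0.53. Counts over the list were 5 higher and 3 lower in WT and 4 higher and 3 lower in KO.

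Of the 19 genes of cell fusion, 18 could be tested, and 11 rose and 3 fell in WT while 10 rose and 3 fell in KO. *Cdh1*, E-cadherin, which is known to be needed for IL-4-driven fusion of macrophages, had 0 reads in all 6 M0 libraries. In M2 it had 206, 197 and 231 reads in WT and 173, 204 and 257 in KO, at least 73.6-fold and 80.4-fold higher. The tetraspanin *Cd9* rose by 1.94 in WT and 1.69 in KO, and *Cd44*, a hyaluronan receptor, by 1.57 and 1.58. *Sh3pxd2a*, a podosome scaffold, fell by 1.43 and 1.63, and the chemokine *Ccl2* by 1.09 and 1.16.

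The calcitonin receptor partners were mostly at the limit of the libraries. *Ramp1*, a subunit that turns the calcitonin receptor into an amylin receptor, had 0, 3 and 2 reads in WT M0 against 14, 12 and 14 in WT M2, a ratio of 8.38 (95% exact interval 3.31 to 27.2). In KO it had 2 reads in each M0 library and 13, 9 and 10 in M2, a ratio of 6.05 (2.49 to 17.7). It did not reach the average count limit in WT and was not tested in KO. *Calcrl*, the related receptor for CGRP and adrenomedullin, was the member of the list with a solid level, at 825 ± 51.9 in WT M0 against 929 ± 120 in WT M2. In KO it fell by 0.27 (adjusted p = 0.0206), just past the fold limit. That call was lost with DESeq2, RLE factors, the stricter filter or the replicate block, and without KO M0 library 1 or KO M2 library 1 or 3.

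Markers of other cells were read beside these changes. The dendritic cell list summed to 4 to 13 counts per M0 library, 119 to 156 in WT M2 and 89 to 114 in KO M2, nearly all of it *Zbtb46* in M2, while *Flt3* had 0 reads in every M2 library. The osteoblast and stroma list summed to 44 to 78 counts in M0 and 168 to 208 in M2, nearly all of it *Runx2*, with *Col1a1* at 0 in every M2 library and *Bglap* at a single read over the M2 libraries. Their part in the changes of the members was not tested.

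Between genotypes, 2 of the 99 partner genes tested in M0 were called, both higher in KO (2.02%, against 0.22% of all genes tested). In M2, 1 of 102 tested was called higher (0.98%, against 0.408%) and 5 lower (4.9%, against 0.572%). In M0, *Mmp14* was higher in KO by 0.57 (SE 0.09, adjusted p = 0.0277) and *Cd81*, a tetraspanin known to restrain macrophage fusion, by 0.55 (SE 0.10, adjusted p = 0.0375). In M2, *Cd81* was higher by 0.27 (SE 0.06, adjusted p = 0.0313) and 5 genes were lower in KO. *Car2* was lower by the most, with a normalised count of 272 ± 75.4 in WT M2 and 138 ± 15.5 in KO M2 (log2 fold change -0.97, SE 0.16, adjusted p = 0.00622), and it lost the call only without KO M2 library 2 among the libraries left out in turn. *Src* (-0.41, adjusted p = 0.0368), *Calcrl* (-0.36, adjusted p = 0.0499), *Tcirg1* (-0.28, adjusted p = 0.0163) and *Blnk* (-0.28, adjusted p = 0.0376) were the others. Each of these 4, and *Cd81*, lost the call without 4 or 5 of the 6 M2 libraries left out singly. *Mmp14* and *Cd81* in M0 each lost it without WT M0 library 1 or 3 or KO M0 library 1 or 3.

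**Figure D4:**
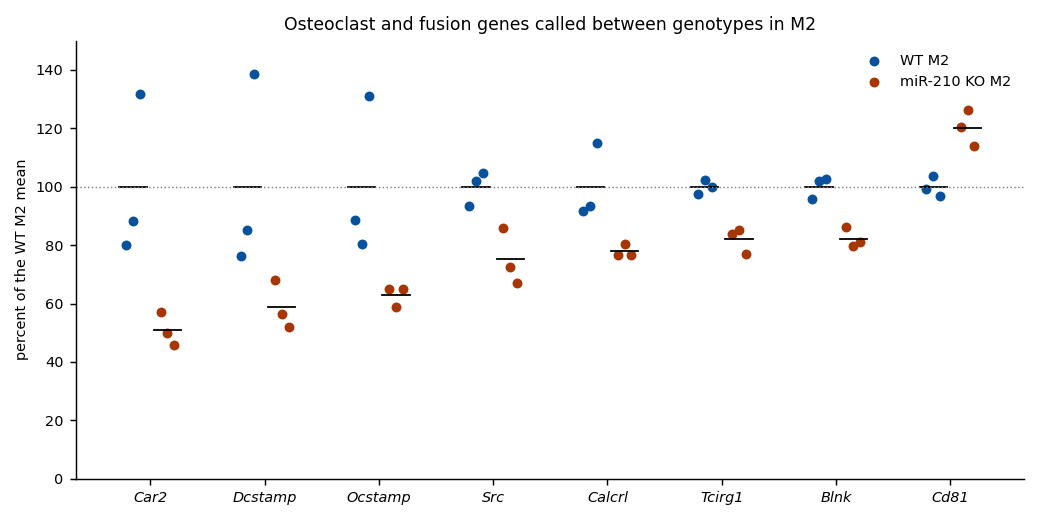
Level of the 8 osteoclast and fusion genes called between genotypes in M2, in percent of the WT M2 mean, 1 point per library and a bar at the mean of 3. KO libraries lie at 45.7 to 86.1% for the 7 lower genes and at 114 to 126% for *Cd81*, and the same WT M2 library is the highest, clear of the others, for *Car2*, *Dcstamp*, *Ocstamp* and *Calcrl*.

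WT M2 library 3 stood at 132% of the WT M2 mean for *Car2*, 139% for *Dcstamp* and 131% for *Ocstamp*, while the other WT M2 libraries were at 76.2 to 88.6% for these 3 genes. The KO M2 libraries were at 45.7 to 68.1%. For *Calcrl* the same library was at 115%, with 91.8 and 93.3% in the others. *Src*, *Tcirg1* and *Blnk* had no such library, with WT M2 values of 93.3 to 105%.

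The genes whose pattern over the 12 libraries was most like that of 3 members were found by Pearson r of log2 TMM-scaled CPM. For *Dcstamp* they were *Il1rl1* (r = 0.997), *Olfm1* (0.997) and *Csf2rb* (0.996). For *Ocstamp* they were *Anxa2* (0.999), *Pcdh7* (0.998) and *Tifab* (0.998). For *Acp5* they were *Gm8113* (0.998), *Plekhf1* (0.998) and *Prkcd* (0.998). The libraries share treatment and genotype, and 100, 153 and 166 of 14824 genes compared had an r over 0.99 with *Dcstamp*, *Ocstamp* and *Acp5*, so that these names describe genes that separate M0 from M2 and no more.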

How the data were processed

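RNA was sequenced by the authors as stranded paired-end libraries after ribosomal RNA depletion. Reads were trimmed with Trimmomatic, duplicates removed with Picard, and reads aligned to GRCm39 with STAR. The raw read counts per gene deposited by the authors, from stranded counting with featureCounts, are whole numbers that were not normalised. Deposited normalized tables were not used. The 3 columns of a group carry numbers that the labels do not tie to samples, so "library 1" names a column and pairs nothing.

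From the raw counts, edgeR 4.0.16 (R 4.3.3) was run on each pair of groups with TMM factors, filterByExpr, glmQLFit and glmQLFTest, and on all 12 libraries for the interaction. p-values were adjusted over all genes tested. The standard errors (SE) given were back-calculated as the absolute log2 fold change divided by the square root of the F statistic. DESeq2 1.42.0, RLE factors, no or a stricter filter (20 counts in 3 libraries), a fit of all libraries, a block by column number, a fold limit of 1 (log2) and leaving out each library were alternatives. Count ratios carry 95% exact binomial intervals. Symbols and exonic lengths came from GENCODE (GRCm39), which matched 56323 of 56941 identifiers. Seed and motif matches were counted with Python 3.11.15. The tests were tested on simulated data with known changes.

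The members and lists were chosen with earlier results of these data known. Genes were named by rule: all members, the called genes with the 3 largest increases and decreases per list and comparison, *Mir210*, *Atp6v0d1* and the 3 genes most like *Dcstamp*, *Ocstamp* and *Acp5*. *Itgav*, *Tnfsf11*, *Tnfrsf11b*, *Ramp1* and the marker genes given singly were named outside it after their values were seen, as were called genes beyond the 3 per list. A called gene of the lists is not reported here.

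Genes on the opposite strand overlap *Dcstamp*, *Acp5*, *Calcr*, *Oscar*, *Nfatc1* and *Atp6v0d2*. The counting was stranded, and a long noncoding RNA lies on the same strand within *Tnfrsf11a*.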

Additional observations from a re-analysis of the deposited data

How the results depend on the processing

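Members called between genotypes in M2 numbered 2, and 0 with DESeq2, 1 with RLE factors, 1 with at least 20 counts in 3 libraries, 0 in the fit of all 12 libraries, 0 with a fold limit of 1 on the log2 scale, and 0 to 2 with a library left out. Partner genes called between genotypes in M0 numbered 2, and 5 with DESeq2, 12 with no filter on low counts, 6 in the fit of all 12 libraries, 4 with the replicate block and 0 with the fold limit of 1, and 0 to 4 with a library left out. In M2 they numbered 6, and 1 in the fit of all 12 libraries, 0 with the fold limit of 1, and 1 to 5 with a library left out. From M0 to M2, partner genes called fell from 68 in WT and 59 in KO to 23 in each with the fold limit of 1. For the interaction, members called were 1 with no filter and 0 to 1 with a library left out, and partner genes 1 with DESeq2, 11 with no filter and 0 to 2 with a library left out. The cause was not tested, beyond the fewer libraries or the higher limit that define a setting.

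Of the members' own fold changes, 476 values under these alternatives kept their side of the threshold, 12 fell short of it, 7 passed it newly and 0 changed sign while called. The 476 include values that changed sign while not called. *Acp5* between genotypes in M2, for example, ranged from -0.12 to 0.07. *Itgb3* in M2 was called with no filter (0.45) and with the replicate block (0.44). Columns with the same number correlated at -0.27 to 0.34 in their deviations from group means, so the numbers were not taken as pairs. Depth limits *Calcr*, *Oscar* and the M0 levels of *Dcstamp* and *Ocstamp*.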
